A study of Mus musculus with 48 samples.

Results

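M6 tumors were compared with tumors of the other FVB/N models of mouse mammary cancer in the series. The comparison held the 4 tumors labelled M6 and the 16 tumors labelled 6DT1, HRM-1, MVT-1 and Met-1, 4 from each, out of 48 tumors from 12 models. All 5 models were of the FVB/N strain and of genetically engineered origin. Cells of each line had been implanted into the #4 mammary fat pad of immunocompetent mice of the same strain, and tumors were taken at 0.5 to 1.0 cm in diameter, dissected away from non-malignant and necrotic tissue and frozen. MVT-1 is a cell line from a mouse carrying Myc and VEGF transgenes under the MMTV promoter, while the sources used here do not name the transgenes of M6, 6DT1, HRM-1 and Met-1. For mammary tumors, the study's methods give female hosts aged 6 to 8 weeks, and the arrays were run as a separate project for which no age is given apart. No further treatment is named for any of these groups. Each model is 1 cell line, so the spread between its tumors holds no variation between lines, and p-values measure the spread between tumors. Each tumor was hybridized to its own Affymetrix Mouse 1.0ST array, and values are the log2 signals that the authors deposited.

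Tumor tissue holds malignant epithelium, fibroblasts, vessels and immune cells, and a bulk array reads all of them together, so that fewer cells of a type and less RNA per cell cannot be told apart. Mammary epithelium has a luminal layer, marked by Krt8, Krt18, Epcam and Cdh1, and a basal layer, marked by Krt5, Krt14 and Trp63. The retinoblastoma protein holds back E2F factors, which switch on genes of DNA replication when a cell enters S phase, and p53 switches on genes that stop division or cause cell death. TGF-β is secreted in a latent form that integrins such as αvβ8 release, and it signals through Smad2, Smad3 and Smad4.

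A gene was called where limma's adjusted p was under 0.05. Against the equally weighted mean of the other 4 models, 3689 of 19938 genes were higher in M6 (18.5%) and 3338 were lower (16.7%). Against 6DT1 alone 20.1% of the genes were higher and 16.2% lower, against HRM-1 14.9% and 16.3%, against MVT-1 16.1% and 16.2%, and against Met-1 16.9% and 14.8%. In the same direction against each of the 4 models, 1352 genes were higher (6.78%) and 703 were lower (3.53%). Of these, the 4 M6 tumors lay above all 16 others for 966 genes (4.85%) and below them all for 296 (1.48%). Against each of the 11 other models, strains other than FVB/N included, 649 genes were higher in M6 (3.26%) and 287 were lower (1.44%). The median difference over all genes was -0.01 on the log2 scale.

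The M6 tumors were alike, with correlations of 0.97 to 0.99 among each other across genes and at most 0.96 with any tumor of another model. Replicate 3 stood apart in part. Its score for 10 genes of skeletal muscle, the mean over the genes of log2 signal relative to the gene's median over the 48 tumors, was 3.5, against 0.39, -0.13 and 1.39 in replicates 1, 2 and 4 and at most 1.29 in the 16 others. Ckm, the muscle creatine kinase, had log2 signals of 7.71, 7.25, 11.34 and 9.29 in M6 replicates 1 to 4. Of the 10 muscle genes 5 were called higher than the mean of 4 models with all tumors, beside 18.5% of all genes. The count was 0 without replicate 3 and 1 without replicate 4. Replicate 2 had a milk protein score of 3.72, against -0.25 to -0.10 in the other M6 tumors, and an adipocyte score of 1.61, against -1.29 to -0.35. Among the 16 tumors, Met-1 replicate 2 had a B cell score of 4.71, and 6DT1 replicates 2 and 3 had adipocyte scores of 3.39 and 3.68. A fit without these 3 outlying tumors, added after the data were seen, is given for genes of E2F and mitosis and where it moved the count of a gene group by over 1.5 times.

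Sox11, Itgb8 and Pmepa1 had been proposed as markers of M6. Sox11 (gene ID 20666, transcript cluster 10399725), a transcription factor of embryonic development, had log2 signals of 9.47, 9.55, 8.87 and 9.14 in the M6 tumors and of 5.28 to 5.82 in the 16 others, with a median of 5.59. All 4 M6 tumors were far above every other tumor. The difference from the mean of 4 models was 3.69 ± 0.08 (standard error), or 12.9-fold (adjusted p = 3.4e-31 from limma). Itgb8 (gene ID 320910, transcript cluster 10403229), the β8 integrin chain, had 10.83, 10.40, 10.47 and 10.99 in M6. In the others it ran from 6.63 in a 6DT1 tumor over a median of 7.65 to 9.67 in a Met-1 tumor, so the groups did not overlap. The Itgb8 difference was 2.85 ± 0.28 from the mean of 4 models and 1.41 from Met-1, the nearest of them (adjusted p = 9.3e-11 and 0.0015 from limma). Pmepa1 (gene ID 65112, transcript cluster 10490159), a target gene and inhibitor of TGF-β signaling, did not single out M6. Its log2 signal was 12.52, 12.38, 12.73 and 12.55 in M6 and 11.39 to 12.75 in the others, with Met-1 tumors within the M6 range. The Pmepa1 difference from the mean of 4 models was 0.49 ± 0.20 (adjusted p = 0.048 from limma), and from Met-1 it was 0.08 (adjusted p = 0.86).

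**Figure D1:**
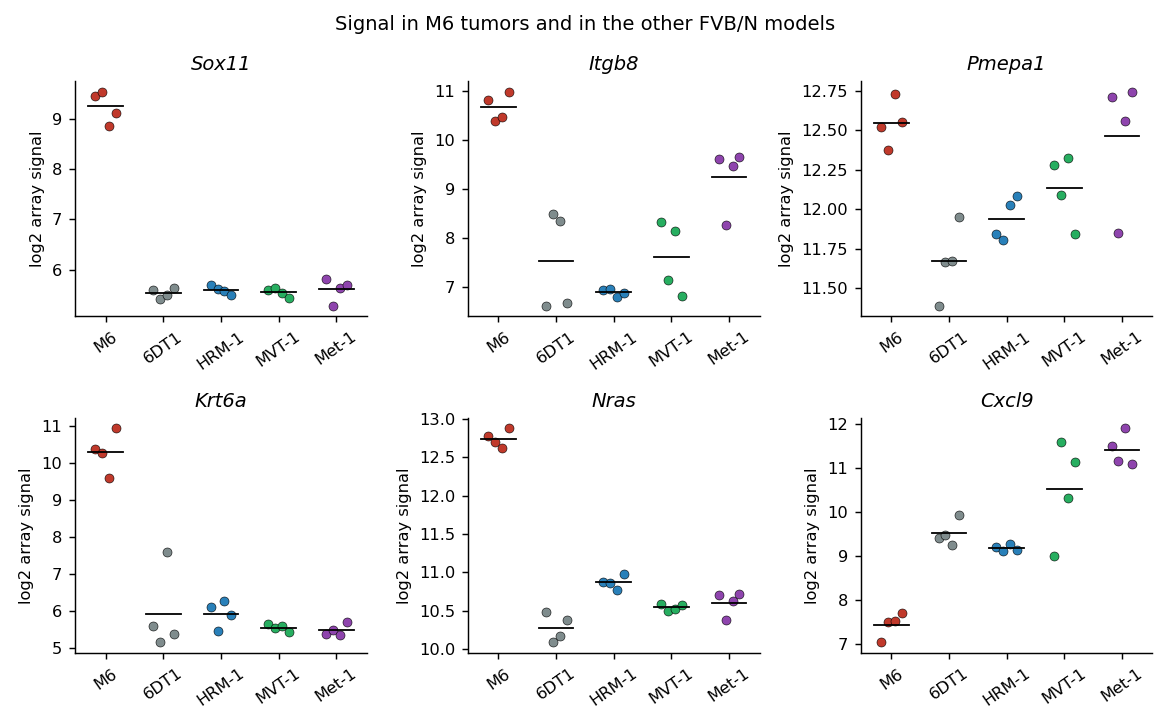
Log2 array signal (vertical axis) of 6 genes in the 5 FVB/N models (horizontal axis), with 1 point per tumor, 4 per model, and a line at the mean of each model. M6 tumors lie above the 16 others for Sox11, Itgb8, Krt6a and Nras and below them for Cxcl9, while Pmepa1 of M6 lies in the range of Met-1.

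The 14 genes with the largest increases, ranked by the smallest of the 4 differences among genes whose tumors did not overlap, were all also higher than in each of the 11 other models. Krt6a, a keratin of stratified epithelium, had 10.39, 10.26, 9.58 and 10.94 in M6 and 5.14 to 7.58 in the others. Dsg3, a desmosomal cadherin, had 10.55, 10.52, 9.08 and 10.60 in M6 and 5.11 to 8.43 in the others. For both genes the highest of the 16 was 6DT1 replicate 3, a tumor with a high adipocyte score, and M6 lay above it. The differences from the mean of 4 models were 4.58 ± 0.23 for Krt6a and 4.57 ± 0.30 for Dsg3 (adjusted p = 8.7e-19 and 2.4e-15 from limma). Tuft1, which codes for an enamel matrix protein, was high in all tumors and higher in M6, at 12.89, 12.54, 12.49 and 12.55 against 8.38 to 10.26.

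Trpv6, an epithelial calcium channel, was 4.42 ± 0.16 higher than the mean of 4 models, and its nearest model was Met-1, at 7.25 ± 0.69 against 10.71 ± 0.49 in M6 (SD, n = 4 each). Rhcg, an ammonium transporter, had 9.91, 8.82, 7.74 and 9.59 in M6 and at most 6.28 in the 16 others. Cdh15, the cadherin of muscle, had 11.26, 10.20, 9.87 and 10.82 in M6 and 6.61 to 8.02 in the others. Among the M6 tumors it was lowest in replicate 3, the tumor with the highest muscle score, and the part of muscle tissue in its signal was not tested. Rarb, a retinoic acid receptor, and Shox2, a homeobox factor of limb and heart development, were higher by 3.26 ± 0.15 and 3.11 ± 0.18. Chad, a cartilage matrix protein, and F5, coagulation factor V, were higher by 3.98 ± 0.14 and 3.46 ± 0.13. For all of these, adjusted p values from limma were at most 3.8e-17. Fam81a, Dennd2c and Bcas2 completed the 14, and the last of these are taken up with their neighbours on the chromosome.

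**Figure D2:**
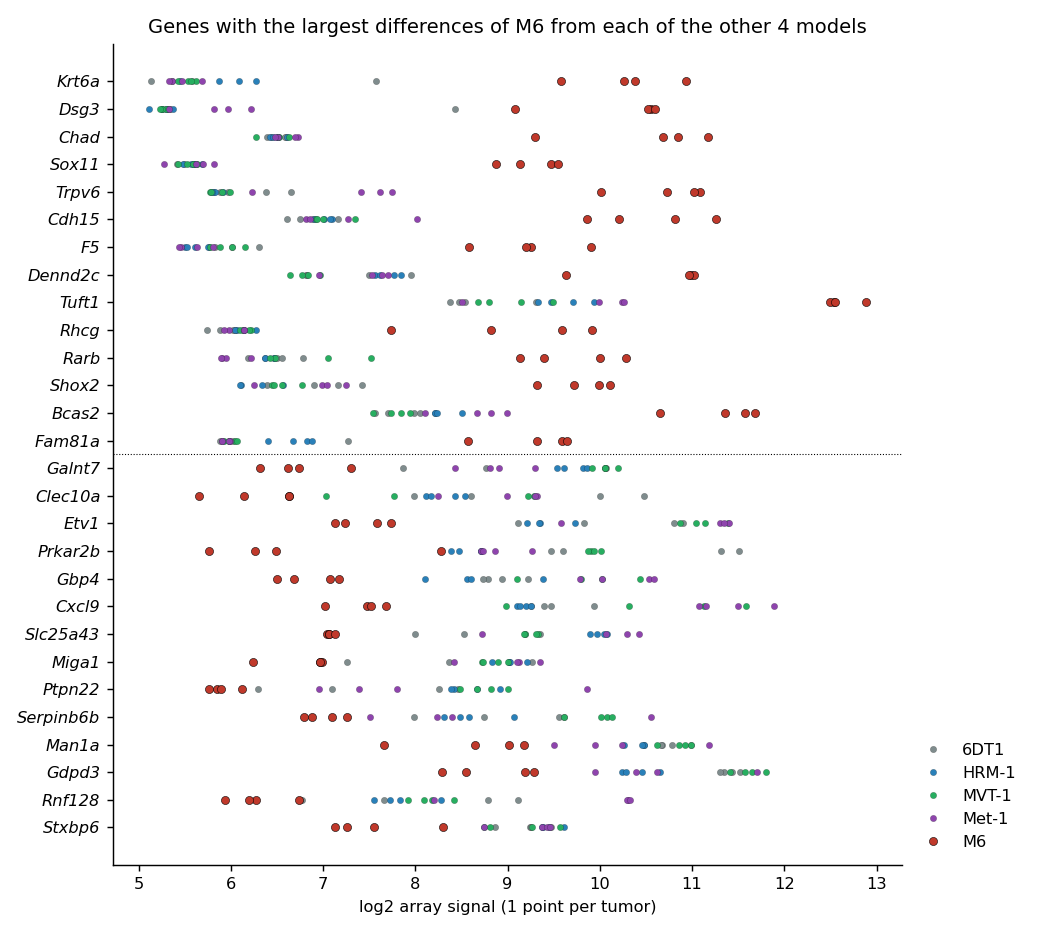
Log2 array signal (horizontal axis) of the 14 genes with the largest increases (above the dotted line) and the 14 with the largest decreases in M6, with 1 point per tumor. The red M6 points and the points of the 16 other tumors do not overlap for any of these genes, as the rule for naming them required.

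Of the 14 genes with the largest decreases, 6 were also lower than in each of the 11 other models. Cxcl9, a chemokine induced by interferon-γ that draws T cells, had 7.03, 7.48, 7.52 and 7.69 in M6 and 8.98 to 11.89 in the others, a difference of -2.72 ± 0.32 (adjusted p = 8.6e-09 from limma). Gbp4, a guanylate-binding protein also induced by interferon-γ, had 6.50 to 7.17 in M6 and 8.11 to 10.59 elsewhere. Clec10a, a lectin of macrophages and dendritic cells, fell by 2.46 ± 0.48, and Ptpn22, a phosphatase of lymphocytes, fell by 2.31 ± 0.29 against the mean of 4 models (adjusted p = 6.9e-05 and 3.0e-08 from limma).

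Galnt7, an enzyme that starts or extends O-linked sugar chains, had 6.32, 6.74, 7.31 and 6.62 in M6 and a median of 9.71 in the others, a difference of -2.71 ± 0.21 (adjusted p = 1.8e-13 from limma). Etv1, an Ets family transcription factor, had 7.13 to 7.74 in M6 and 9.12 to 11.40 in the others. Slc25a43, a mitochondrial carrier, was nearly constant in M6, at 7.05, 7.07, 7.06 and 7.14, and reached 8.0 to 10.43 in the others. Prkar2b, a regulatory subunit of protein kinase A, had 5.77, 8.28, 6.49 and 6.26, with the high value in the M6 tumor that also had a high adipocyte score. Miga1, Serpinb6b, Man1a, Gdpd3, Rnf128 and Stxbp6 completed the list, lower by 1.69 to 2.19 than the mean of 4 models.

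Genes of DNA replication under Rb and E2F were higher in M6 as a group. Of 27 measured members of this list, 26 were higher than the mean of the 4 models and 0 lower, and 23 were higher than in each model, beside 18.5% and 6.78% of all genes. The median difference of the list was 1.14 against -0.01 for all genes. Mcm5, a subunit of the replicative helicase, had 11.68, 11.54, 11.56 and 11.47 in M6 and 9.17 to 10.35 in the others, a difference of 1.55 ± 0.12 (adjusted p = 2.3e-13 from limma). Gins2, another part of the helicase complex, was higher by 1.33 ± 0.09, and Cdc6, which loads the helicase, by 1.22 ± 0.11. E2f2, an activating E2F, had 8.87, 8.68, 8.68 and 9.10 against 7.39 to 8.25. Ezh2, a histone methyltransferase and E2F target, had 11.94, 11.71, 11.54 and 11.88 against 10.14 to 10.87. None of these 5 genes, named for their smallest p in this comparison, overlapped between M6 and the 16 others. Of all genes, 4.85% were higher than in each model without overlap. The list score was 0.88 to 0.95 in the M6 tumors and -0.88 to 0.04 in the others, lowest in 6DT1 replicate 3. Without the 3 outlying tumors the count against each model was 23 as well, and without single M6 tumors it was 22 or 23.

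Promoters of 3 of these genes are shown because their letters hold a match to the site that E2F factors recognize. The sequences are from RefSeq on GRCm38.p6 and run from 250 bases before to 50 after the annotated start. Capitals mark matches on either strand to TTTCGCGC, TTTGGCGC or TTTCCCGC, forms of the E2F site, which can overlap one another.
Mcm5, chr8:75109259-75109558, strand plus: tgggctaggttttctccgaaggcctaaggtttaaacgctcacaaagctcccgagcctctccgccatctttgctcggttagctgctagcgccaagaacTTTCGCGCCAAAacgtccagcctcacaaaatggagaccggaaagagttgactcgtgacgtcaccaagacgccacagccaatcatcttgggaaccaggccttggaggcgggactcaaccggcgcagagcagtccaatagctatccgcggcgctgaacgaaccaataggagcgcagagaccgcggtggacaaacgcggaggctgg
Cdc6, chr11:98907901-98908200, strand plus: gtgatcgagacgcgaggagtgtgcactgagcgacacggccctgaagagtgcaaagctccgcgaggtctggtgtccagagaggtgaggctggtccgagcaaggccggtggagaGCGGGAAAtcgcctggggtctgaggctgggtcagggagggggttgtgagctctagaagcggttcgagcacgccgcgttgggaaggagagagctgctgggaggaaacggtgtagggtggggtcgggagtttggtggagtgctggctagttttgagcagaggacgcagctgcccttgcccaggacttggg
Ezh2, chr6:47594981-47595280, strand minus: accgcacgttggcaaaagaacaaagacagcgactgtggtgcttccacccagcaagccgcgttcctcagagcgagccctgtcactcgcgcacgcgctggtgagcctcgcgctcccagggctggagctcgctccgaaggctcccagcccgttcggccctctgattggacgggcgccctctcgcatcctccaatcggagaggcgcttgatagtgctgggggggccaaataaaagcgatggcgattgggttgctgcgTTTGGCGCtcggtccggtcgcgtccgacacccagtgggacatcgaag
Such a match stood in a promoter of 12 of the 23 list members with a promoter sequence, or 52.2%, and in 2.99% of all 15563 genes with one. Among the 1352 genes called higher than in each of the 4 models, 974 had a promoter sequence, and 10.7% of these held a match. So did 1 of 16 mitosis genes with a promoter sequence. A match of letters is a description of these windows and does not show binding.

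Mitosis genes were higher as well. All 21 measured members were higher than the mean of 4 models and 13 were higher than in each model, beside 18.5% and 6.78% of all genes. The median difference of the list was 1.07. Mki67, the proliferation marker Ki-67, had 11.75, 11.60, 11.39 and 11.78 in M6 and 9.80 to 11.02 in the others. Foxm1, a transcription factor of mitotic genes, had 10.90, 10.98, 10.83 and 10.93 in M6 and 8.32 to 9.93 in the others, and it was higher by 1.36 ± 0.20 (adjusted p = 4.6e-07 from limma). Nusap1, Kif11 and Kif20a, which act on the spindle, were higher by 1.18 to 1.41. The lowest tumor for all of these 5 genes was 6DT1 replicate 3. Without the 3 outlying tumors, 20 mitosis genes were higher than the mean of 4 models and 14 were higher than in each model.

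Of 15 CDK inhibitors and Rb family genes 6 were higher and 3 lower than the mean of 4 models, beside 18.5% and 16.7% of all genes. Cdkn1b, the inhibitor p27, was 11.27, 11.22, 11.17 and 11.44 in M6 and 10.10 to 10.90 in the others, and Rbl1, the Rb relative p107, was 10.13 to 10.33 in M6 and 8.69 to 9.48 in the others. Cdkn2d, the inhibitor p19, rose by 0.43 ± 0.09, while Ccnd2, cyclin D2, fell by 1.35 ± 0.27 (adjusted p = 9.7e-05 and 9.2e-05 from limma). Of 21 p53 target genes 10 were lower and 3 higher than the mean of 4 models, beside 16.7% and 18.5% of all genes, with a median of -0.22. Lower than in each model were 3, beside 3.53% of all genes. The p53 list score was -0.13 to 0.18 in M6 and -0.16 to -0.045 in Met-1. It was 0.03 to 0.31 in 6DT1, 0.17 to 0.31 in MVT-1 and 0.58 to 0.86 in HRM-1. Zmat3, an RNA-binding target of p53, had 6.83, 7.26, 7.50 and 6.76 in M6 and 7.55 to 9.26 in the others. Mdm2, the ubiquitin ligase that acts on p53, was 9.37 ± 0.17 in M6, 12.81 in HRM-1 and 9.50 to 9.67 in the other 3 models, so that its lower call against the mean came with no call against each. Ccng1 and Dcxr fell by 0.53 ± 0.075 and 0.49 ± 0.07, and Psrc1, a spindle protein on the list, rose by 1.21.

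**Figure D3:**
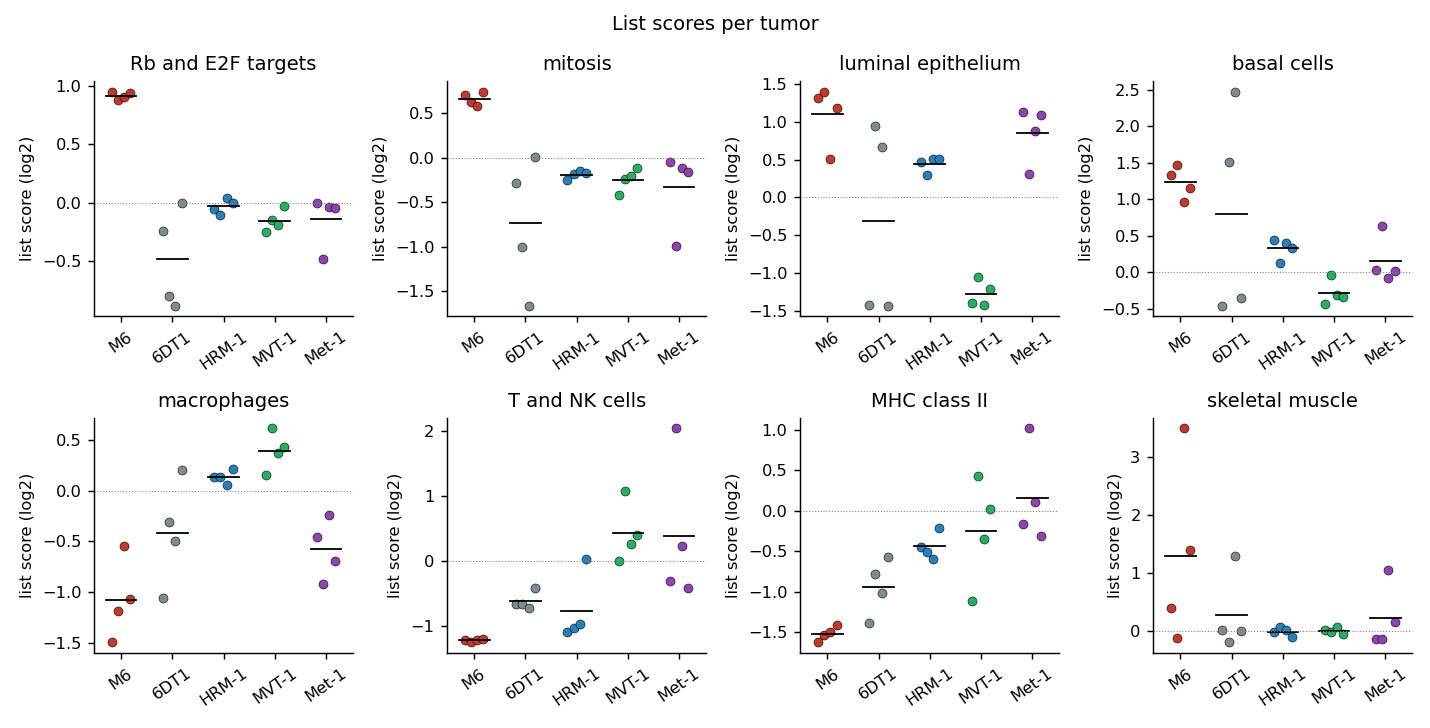
Scores of 8 gene lists (vertical axis, average of the member genes' log2 signals after each gene's median over 48 tumors was subtracted) in the 5 FVB/N models (horizontal axis), with 1 point per tumor and a line at the mean of each model. M6 tumors lie above all others for Rb and E2F targets and mitosis and below all others for T and NK cells and MHC class II. HRM-1 tumors come close to M6 for T and NK cells. The muscle panel shows M6 replicate 3 at 3.5.

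The keratins of M6 were mixed. Krt14 and Krt17, basal keratins, had means of 12.24 ± 0.22 and 12.07 ± 0.34 in M6 (SD, n = 4 each), while Krt14 had 6.95 to 10.65 and Krt17 6.48 to 8.22 as means of the other models. Both were higher than in each of the 11 other models, but the Krt17 signal of 11.56 in M6 replicate 3 lay below the 11.68 of 6DT1 replicate 3. Krt5, the partner of Krt14, was 10.81, 9.73, 6.82 and 9.85 in M6 and 6.55 to 12.33 in the others, and its difference of 1.35 did not pass (adjusted p = 0.16 from limma). Trp63, the basal regulator p63, did not pass either, with 7.37, 7.36, 8.98 and 7.31 in M6. M6 replicate 3 thus had the lowest Krt5 and the highest Trp63 of the model. Of 15 basal genes 5 were higher and 2 lower than the mean of 4 models, beside 18.5% and 16.7% of all genes. Higher than in each model were 3, beside 6.78% of all genes. Without the 3 outlying tumors 8 were higher and 1 lower than the mean of 4 models and 6 were higher than in each, and the count of lower genes was also 1 without M6 replicate 1, 3 or 4. Of the outlying tumors, 6DT1 replicates 2 and 3 had basal scores of 1.51 and 2.47, against -0.46 to 0.63 in the other 14.

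Luminal genes separated M6 from some models only. Of 23 members 15 were higher than the mean of 4 models and 0 lower, beside 18.5% and 16.7% of all genes, with a median difference of 1.42, but 0 were higher than in each model. Epcam, an epithelial adhesion molecule, was 11.58 ± 0.39 in M6, 11.17 in Met-1 and 11.03 in HRM-1, against means of 8.08 in 6DT1 and 6.43 in MVT-1. The 6DT1 tumors were split, with Epcam at 5.73, 10.16, 10.47 and 5.96 in replicates 1 to 4. Their luminal scores were 0.95 and 0.66 in replicates 2 and 3, which had high adipocyte scores, and -1.42 and -1.43 in replicates 1 and 4. Cdh1, E-cadherin, was 12.10, 12.00, 11.08 and 12.05 in M6 and 7.77 to 11.34 in the others, and Ehf, an epithelial Ets factor, was highest in a Met-1 tumor, at 11.55. Elf3, Cldn7, Muc1 and Grhl2 were higher than the mean of 4 models by 1.72 to 1.86 and overlapped tumors of HRM-1 or Met-1, and Muc1 also a 6DT1 tumor. Krt8 and Krt18, which all 5 models expressed at 11.76 to 13.33 on average, did not pass (adjusted p = 0.39 and 0.63 from limma). The luminal score was 0.51 in M6 replicate 3 and 1.18 to 1.39 in the other M6 tumors.

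Of 14 mesenchymal regulators and markers 1 was higher and 7 were lower than the mean of 4 models, beside 18.5% and 16.7% of all genes, and 2 were higher without the 3 outlying tumors or without M6 replicate 1 or 2. Twist1 and Zeb2, transcription factors of epithelial-mesenchymal transition, were lower than in each of the 11 other models, by 1.5 ± 0.16 and 1.12 ± 0.16 against the mean of 4 models (adjusted p = 4.7e-10 and 2.4e-07 from limma). Both were highest in M6 replicate 3, at 8.07 and 9.70, where Twist1 overlapped a Met-1 tumor and Zeb2 overlapped Met-1 and 6DT1 tumors. Vim, vimentin, was lower by 0.18 and S100a4 by 1.43, and Cdh2, N-cadherin, was higher by 1.48 ± 0.25, with Met-1 at 9.17 above the 8.90 of M6.

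Of 300 miRNA genes tested, 4 were higher than in each of the 4 models and 0 lower (1.33% against 6.78% of all genes). Of these, Mir140 and Mir200b are named here, chosen after their values were seen, and their mature sequences from RefSeq are shown with the seed, bases 2 to 8, in capitals, because the seed sets which transcripts a miRNA can pair with.
mmu-miR-140-3p: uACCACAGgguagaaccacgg
mmu-miR-200b-3p: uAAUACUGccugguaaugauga
The array reads the gene and not the mature strand. Mir140 had 8.90, 9.57, 7.64 and 8.77 in M6 and 4.82 to 8.49 in the others, with only Met-1 tumors reaching the M6 range, and a difference of 3.09 from the mean of 4 models (adjusted p = 2.2e-12 from limma). Wwp2, the ubiquitin ligase gene that hosts Mir140 in an intron, had 11.91, 12.00, 11.39 and 11.66 in M6 and 8.90 to 11.14 in the others, and the part of the host transcript in the Mir140 signal was not tested. Mir200b, a miRNA of epithelial cells known to act on Zeb1 and Zeb2 transcripts, had 7.80, 7.01, 5.55 and 6.13 in M6 and 5.09 to 6.66 in the others, so that 2 of the 4 tumors overlapped. M6 replicate 3 was the lowest for both miRNA genes.

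Macrophage, T cell and MHC class II genes were lower in M6. Of 15 macrophage genes 12 were lower than the mean of 4 models and 0 higher, beside 16.7% and 18.5% of all genes, with a median difference of -0.95. Csf1r, the receptor of the macrophage growth factor, was 9.04, 9.65, 10.43 and 9.68 in M6 with a median of 11.05 in the others, and Adgre1, a macrophage surface receptor, was 8.29, 8.77, 9.82 and 8.76 with a median of 10.12. Mrc1, the mannose receptor, was lower by 1.99 ± 0.32 and Ccr2, a chemokine receptor of monocytes, by 1.81 ± 0.25 (adjusted p = 2.5e-06 and 2.8e-07 from limma). Their highest M6 value was in replicate 3 each time, and the groups overlapped for Csf1r, Adgre1, Mrc1 and Ccr2. The number of macrophage genes lower than in each model was 3 with all M6 tumors, beside 3.53% of all genes. This number was 7 without replicate 3 and 0 without replicate 1. Csf1, the ligand of Csf1r, was 8.04, 8.51, 9.44 and 8.67 in M6 and 9.54 to 10.58 in the others, and the monocyte chemokines Ccl2, Ccl7 and Ccl8 differed from the mean of 4 models by -2.1 to -1.49.

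The 4 M6 tumors had T and NK cell scores of -1.25 to -1.20, and every other tumor lay above them, up to 2.03 in Met-1 replicate 2. HRM-1 replicates 1 to 3 came close to M6, at -1.09, -1.02 and -0.97. Of 16 members 10 were lower than the mean of 4 models, beside 16.7% of all genes, and 0 were lower than in each model. Cd3e, a chain of the T cell receptor complex, was 7.62, 7.51, 7.32 and 7.78 in M6 and 12.33 in Met-1 replicate 2. In HRM-1 replicates 1 to 3 it was 7.53 to 7.65, within the M6 range. Nkg7, a granule protein of cytotoxic cells, was 6.03 to 6.33 in M6 with a median of 8.56 in the others. It was 6.31, 6.33 and 6.65 in HRM-1 replicates 1 to 3, so that the groups overlapped. Of 8 MHC class II genes 6 were lower than the mean of 4 models and 4 were lower than in each, beside 16.7% and 3.53% of all genes. H2-Aa had 10.07, 10.42, 10.35 and 10.52 in M6 and 10.44 to 12.57 in the others, with only 6DT1 replicate 1 in the M6 range, and a difference of -1.51 ± 0.20 (adjusted p = 6.4e-08 from limma). Ciita, the factor that switches on MHC class II genes, was 6.68 to 6.89 in M6 and 6.91 to 9.82 in the others. The count of MHC class II genes lower than in each model was 2 without the 3 outlying tumors, 1 without M6 replicate 1 and 2 without M6 replicate 2.

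Of 21 genes induced by interferon 9 were higher and 4 lower than the mean of 4 models, beside 18.5% and 16.7% of all genes, and Cxcl9 alone was lower than in each. The count of higher genes was 4 without M6 replicate 1, and 4 as well with only the FVB/N models in the fit. Ifit1, Ifih1, Oasl1 and Usp18, which respond to type I interferon, were higher than the mean of 4 models by 0.72 to 1.19. All 4 overlapped tumors of other models, and 0 genes of the list were higher than in each model. The score of this list was -0.795 to -0.207 in M6, with a median of -0.613 in the 16 others. Of 19 fibroblast genes 1 was lower, with a median difference of -0.15, and the count was 4 without M6 replicate 3 and 0 without M6 replicate 1, where the median was 0.07. Of 14 endothelial genes 1 was higher and 1 lower, with a median of -0.16, and the count of lower genes was 2 without M6 replicate 3 and 0 without any other M6 tumor or without the 3 outlying tumors, where the median was 0.075. Of 8 B cell genes 0 passed in limma, with a median of -0.60, and the median was -0.26 without the 3 outlying tumors, among them the B cell-rich Met-1 tumor.

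Of the 3 TGF-β ligands, Tgfb1 and Tgfb3 differed from the mean of 4 models by -0.14 ± 0.13 and -0.03 ± 0.15 (adjusted p = 0.46 and 0.93 from limma), and Tgfb2 was lower by 0.90 ± 0.29 (adjusted p = 0.012). Tgfb2 had 6.61, 7.73, 7.88 and 7.15 in M6 and 7.2 to 9.79 in the others, highest in Met-1. The Tgfb2 difference was -2.09 from Met-1 but -0.39, -0.61 and -0.52 from 6DT1, HRM-1 and MVT-1, where it did not pass (adjusted p = 0.44, 0.23 and 0.32 from limma). Smad2 had 10.32, 10.12, 10.17 and 10.18 in M6 and 9.18 to 9.82 in the others, and Smad4 had 11.59, 11.31, 11.49 and 11.46 against 10.84 to 11.17. Neither overlapped, and both were higher than in each of the 11 other models, by 0.64 ± 0.06 and 0.44 ± 0.05 over the mean of 4 models. The receptors Tgfbr2 and Tgfbr3 and the related Acvrl1 were lower than that mean by 0.53, 1.53 and 0.41. Of 21 genes of latency and activation, Itgb8 among them, 3 were higher and 5 lower than the mean of 4 models, beside 18.5% and 16.7% of all genes. Itgb6, another integrin chain, was higher than that mean by 1.02 and Furin was lower by 0.42, and both overlapped tumors of other models. Nrros, which holds latent TGF-β1 on myeloid cells, was 6.28, 6.82, 7.44 and 6.66 in M6 and 7.44 to 9.19 in the others, and Itgav, the αv chain that pairs with β8, was 10.48 ± 0.33 in M6 and lower than the mean of 4 models by 0.62. Of 20 TGF-β target genes 8 were higher and 3 lower than the mean of 4 models, beside 18.5% and 16.7% of all genes, and 0 were called against each model. Without M6 replicate 3 the count of higher genes was 5, and without M6 replicate 1 that of lower genes was 1. Bhlhe40, Junb and Smad7 were higher by 0.44 to 0.68 and Tgfbi was lower by 0.63.

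Of 27 genes of BMPs, activins and their antagonists 12 were higher and 3 lower than the mean of 4 models, beside 18.5% and 16.7% of all genes, and 5 were lower without the 3 outlying tumors. Inhbb, the βB chain of activin, was 10.54, 10.63, 9.57 and 10.49 in M6 and 8.07 to 9.43 in the others, a difference of 1.56 ± 0.18 (adjusted p = 5.5e-09 from limma). Bambi, a decoy receptor, was higher than in each model, by 1.43 ± 0.13 over their mean, and Id1, a target of BMP signaling, was 8.98 to 9.13 against 8.23 to 8.93. Bmp2, a ligand, was 5.72, 5.97, 5.99 and 5.80 in M6 and 6.39 to 8.20 in the others.

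Itgb8 was the only integrin chain higher than in each model, while 14 of 26 chains were lower than the mean of 4 models and 3 higher, beside 16.7% and 18.5% of all genes. Itga2, a chain of the collagen receptor α2β1, was 7.54, 8.23, 7.69 and 7.27 in M6 and 8.42 to 11.24 in the others. Itga6 and Itga9 were lower by 0.86 ± 0.11 and 0.99 ± 0.13, and Itgb2, the β2 chain of leukocytes, by 1.57 ± 0.23 (adjusted p at most 4.3e-07 from limma).

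Of 19 Sox factors 7 were higher and 2 lower than the mean of 4 models, beside 18.5% and 16.7% of all genes. Sox11 and Sox13 were higher than in each model, beside 6.78% of all genes. Sox9, a regulator of progenitor cells, was 12.48, 12.36, 11.74 and 12.45 in M6 but reached 12.26 in a Met-1 tumor. In the Myc network of 10 genes 3 were higher and 3 lower than the mean of 4 models, beside 18.5% and 16.7% of all genes, with a median difference of -0.05. The 3 higher ones, Mycn, Mycl and Mxd3, were higher than in each of the 11 other models, beside 3.26% of all genes. They were higher than the mean of 4 models by 0.81 ± 0.10, 0.76 ± 0.11 and 1.19 ± 0.10. Myc itself was 11.05 ± 0.08 in M6, 12.75 in HRM-1, 12.60 in MVT-1 and 11.98 in 6DT1, and only Met-1 had a lower mean, at 10.44. The 6DT1 tumors varied, with Myc at 12.87, 11.91, 10.35 and 12.79 in replicates 1 to 4, so that replicate 3 lay below every M6 tumor. Among 19 FGF genes 5 were higher and 0 lower than the mean of 4 models, beside 18.5% and 16.7% of all genes, with a median difference of 0.00. The receptor Fgfr3 was 9.71, 9.35, 8.05 and 8.73 in M6 and 6.75 to 8.0 in the others, and Fgfbp1, which releases FGFs from the matrix, was 7.24 to 8.17 against 5.59 to 7.12. Of 13 VEGF and PDGF genes 2 were higher, a share near that of all genes, and 5 were lower, or 3 without M6 replicate 1 or 2. Vegfc, a growth factor of lymphatic vessels, was 8.89, 8.75 and 9.35 in M6 replicates 1, 2 and 4 but 7.19 in replicate 3, and Pdgfc was 7.86, 9.06 and 8.24 in these and 10.44 in replicate 3, within the range of the 16 others.

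A run of 4 neighboring genes was higher in M6. The positions were looked up after the large increases of Dennd2c and Bcas2 had been seen, and the order of the genes is that of RefSeq on GRCm38.p6, while no source used here names the build of the array. Nras, Ampd1, Dennd2c and Bcas2 follow one another on chromosome 3, with no other gene of the array between them. Nras, a Ras oncogene, had 12.78, 12.70, 12.62 and 12.87 in M6 and 10.09 to 10.98 in the others, a difference of 2.16, or 4.48-fold (adjusted p = 3.8e-22 from limma). Ampd1, a muscle form of AMP deaminase, had 8.75, 6.96, 7.57 and 6.45 in M6 and 5.47 to 5.92 in the others. The highest Ampd1 signal was in replicate 1 and the highest muscle score in replicate 3, and the part of muscle tissue in the Ampd1 signal was not tested. Dennd2c, a regulator of Rab proteins, had 10.99, 11.03, 9.63 and 10.97 in M6 and 6.65 to 7.95 in the others, and Bcas2, a part of the spliceosome, had 11.58, 11.36, 10.65 and 11.68 against 7.54 to 9.0. All 4 were higher than in each of the 11 other models. On either side, Sike1 and Trim33 differed from the mean of 4 models by 0.03 and 0.16 (adjusted p = 0.85 and 0.11) and overlapped the other models.

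**Figure D4:**
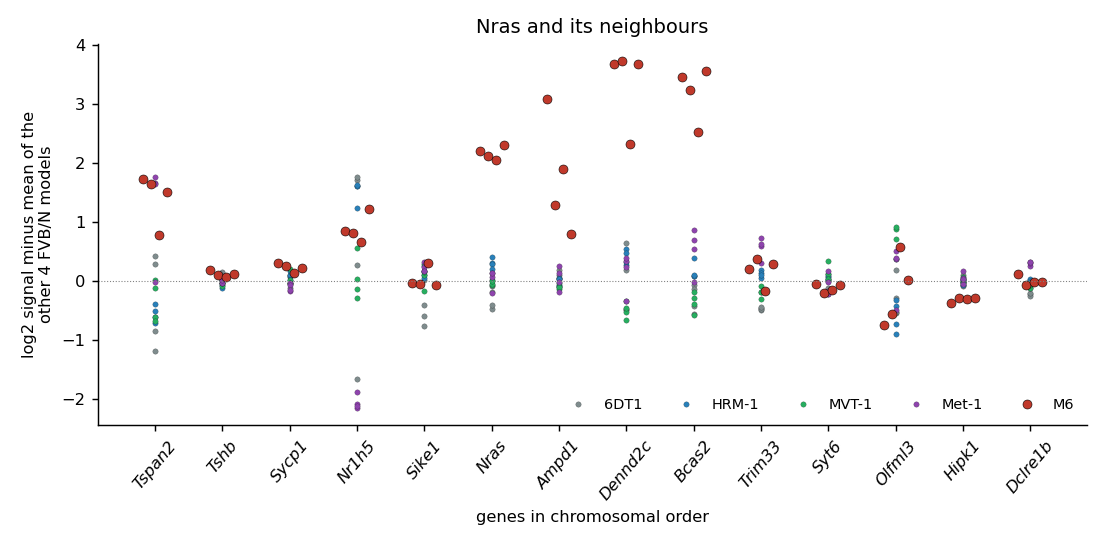
Log2 signal of each tumor minus the mean of the 4 other FVB/N model means (vertical axis) for 14 genes in their order on chromosome 3 (horizontal axis, not to scale). The red M6 points of Nras, Ampd1, Dennd2c and Bcas2 stand apart from the other tumors, and those of Sike1 and Trim33 on either side lie among them.

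Genes higher than in each model were unevenly spread over the chromosomes, a pattern looked for after the data were seen. By the RefSeq assignment of gene IDs, 229 of 955 genes of chromosome 8 were higher than in each of the 4 models (24%) and 93 of 470 genes of chromosome 18 (19.8%), beside 1.22 to 10.8% on the other 18 chromosomes and 6.78% of all genes. These 2 chromosomes held 7.18% of the genes and 23.9% of those higher than in each model. The median difference over the genes was 0.18 for chromosome 8 and 0.09 for chromosome 18, and from -0.08 to 0.03 for the others. On chromosome 8 the median was 0.14 to 0.20 against each of the 4 models taken alone, and on chromosome 18 it was 0.09 to 0.15. Without the dimmest 30% of genes, a setting added after the data were seen, the medians were 0.29 and 0.27 and the shares called 30.1% and 26%. The median over chromosome 8 was 0.13 to 0.24 in the single M6 tumors and -0.14 to -0.01 in the 16 others, each set against the other 4 models. For chromosome 18 the median was 0.05 to 0.15 in M6 and -0.12 to 0.05 in the others, where M6 replicate 2 and a Met-1 tumor came close. For the 16 others those 4 models include M6, so that a high M6 lowers their values by construction. Some medians of other models came near those of M6 on chromosome 18. Met-1 had -0.03 to 0.10 on chromosome 3 and -0.01 to 0.11 on chromosome X, and MVT-1 had 0.04 to 0.12 on chromosome 15. Mcm5, Cdh15 and Wwp2 are genes of chromosome 8, and Smad2, Smad4 and Dsg3 are genes of chromosome 18.

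**Figure D5:**
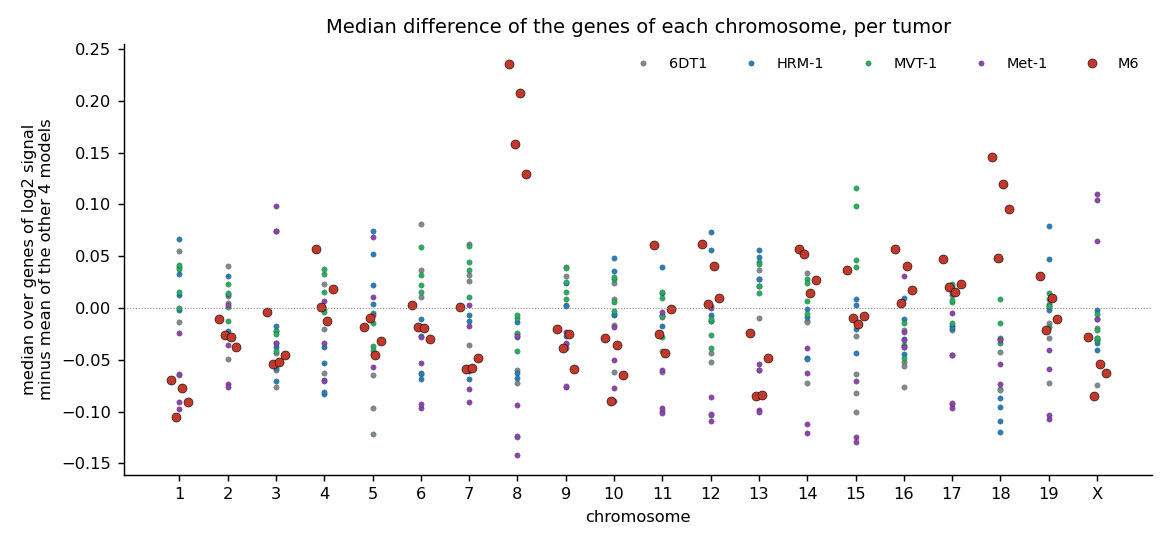
Median over the genes of a chromosome of log2 signal minus the mean of the other 4 FVB/N models (vertical axis) for each chromosome (horizontal axis), with 1 point per tumor. For tumors of models other than M6, M6 is among these 4. The M6 points stand above all other tumors on chromosome 8, at 0.13 to 0.24, and on chromosome 18, at 0.05 to 0.15.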

How the data were processed

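Per the labels, total RNA from 15 to 30 mg of frozen tumor was extracted, and 100 ng was amplified and hybridized. The table the authors deposited holds log2 signals of 35556 transcript clusters for 48 arrays, from 3.49 to 14.12. Its software, normalization and genome build: not given in the sources used here. The 21789 clusters that name 1 gene were kept, and where a gene had several, the one with the brightest average over all arrays stood for it, which left 19938 genes with no filter on dim genes. Of these, 19856 matched RefSeq (GRCm38.p6) by gene ID.

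limma 3.58.1 in R 4.3.3 was fitted to all 48 tumors with 1 group per model, and M6 was contrasted with the mean of 6DT1, HRM-1, MVT-1 and Met-1 and with each model. The threshold was a p of 0.05 after Benjamini-Hochberg adjustment over all genes, and a gene was called against each model where it passed in 1 direction in every contrast. The fit was tested on simulated data with 200 changed genes. List scores, chromosome shares and figures were made with matplotlib 3.10.9, pandas 2.3.3 and numpy 2.4.6 under Python 3.11.15. Of 630 list entries, 597 matched a gene, and 33 are not analysed here. Lists are described by counts and medians, with no test.

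The members, the gene lists and the tests were chosen with earlier results of these data known. Genes named are Sox11, Itgb8, Pmepa1 and the TGF-β ligands, the 14 largest increases and decreases (called against each model, tumors not overlapping, ranked by the smallest of the 4 differences, without predicted symbols), up to 5 members of a list with the smallest p, and members that define a cell type. Nras, Ampd1, Sike1, Trim33, Wwp2 and the miRNA genes were named after their values were seen. The number of tumors limits the precision. Alternatives were quantile normalization, centring of arrays, averaging all clusters of a gene, omitting the dimmest 30% of genes, an intensity trend or a robust prior, only the FVB/N models in the fit, a term for the replicate number, leaving out the 9 tumors with an adipocyte or B cell score above 2.5 or, added after the data were seen, only the 3 of them from FVB/N models, each tumor or each comparison model, required non-overlap, and the methods' t-test and ANOVA with Tukey's test.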

Additional observations from a re-analysis of the deposited data

Results flagged for a closer look

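Of 193 genes and list scores examined in the 4 M6 tumors, 23 had 1 tumor far from the other 3, a gap that chance gives in about 1 in 20 groups. Replicate 3 was that tumor 16 times, replicate 1 in 5, replicate 2 in 2 and replicate 4 in 0. Replicate 3 was low in epithelial genes: Dsg3 at 9.08 (next 10.52), Cldn7 at 9.80 (10.85), Cdh1 at 11.08 (12.00), Erbb3 at 9.05 (10.33) and Sox9 at 11.74 (12.36), and it was high in Trp63 at 8.98 (7.37). It was also low in Dennd2c at 9.63 (10.97), Oasl1 at 9.13 (9.89) and Inhbb at 9.57 (10.49). Replicate 3 was high in Bmp7 at 8.73 (7.70), Angpt1 at 8.26 (7.22), Furin at 10.52 (10.15), Gzmb at 6.37 (5.89) and Sike1 at 10.19 (9.86). Its scores were 0.10 for oncofetal genes (next -0.26) and 0.30 for Wnt genes (0.03). Replicate 1 was high in Tuft1 at 12.89 (12.55) and Tslp at 5.44 (5.29) and low in Ccl8 at 7.17 (8.99), with scores of -0.68 for chemokines and cytokines (next -0.38) and -0.40 for VEGF and PDGF genes (-0.18). Replicate 2 was low in Miga1 at 6.24 (6.96) and had the milk protein score of 3.72 (next -0.10).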

How the results depend on the processing

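Of 5204 values of named genes under the alternatives, 5137 stayed as reported, 47 no longer passed the test, 12 newly passed it and 8 changed sign, and none of these 8 had passed. Tgfb3 ran from -0.28 to 0.15 when single tumors were left out and was 0.11 without MVT-1. Tgfb1 was 0.014 without MVT-1 and Krt8 0.016 without HRM-1. Sike1 ran from -0.056 to 0.068 when single tumors were left out and was -0.12 without 6DT1. The 703 genes lower than in each of the 4 models became 430 with only the FVB/N models in the fit and 296 with non-overlap required. By the methods' ANOVA with Tukey's test, 1.56% of the genes were lower than in each of the 4 models, in place of 3.53%. Without single tumors the count of 703 ran from 463 (without M6 replicate 1) to 860 (without M6 replicate 3), and the 287 genes lower than in each of 11 models ran from 160 (without M6 replicate 1) to 447 (without M6 replicate 3). By the methods' t-test after Benjamini-Hochberg adjustment, 2769 genes differed from 6DT1 and 3129 from Met-1. The causes were not tested. Without the 9 tumors of the series with adipocyte or B cell scores above 2.5, 3 of them FVB/N, 1569 genes were higher and 893 lower than in each of the 4 models, of which 1225 and 568 were shared with the fit of all tumors. Without the 3 FVB/N tumors alone, a setting added after the data were seen, they were 1384 and 723, with 1188 and 542 shared. Correlations between deviations of M6 and other tumors ran from -0.20 to 0.41 with the same replicate number and from -0.32 to 0.34 with a different number. With the same number they were over 0.1 in 9 of 16 pairs, among them all 4 with MVT-1. Of the 4 numbers, the same number correlated best in 11 of 16 combinations of an M6 tumor and a model. This is a hint from the data that some numbers go together, but not every pair was over 0.1 and the labels name no shared animal, litter or day, so the tumors were not treated as paired. With a replicate block, 1342 genes were higher and 707 lower than in each model, and 7001 differed from the mean of 4 models.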
